A study of Mus musculus with 16 samples.

Results

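The locus described here is the stretch of mouse chromosome 15 around Myc and its far downstream enhancers, on the mm9 build. Its members are all H3K4me1 summits listed on chromosome 15 between 61750000 and 63650000 in unstimulated dendritic cells or in unstimulated 3T3 fibroblasts. They were chosen by position alone. The locus held 260 of the 161656 summits of both lists, with 108 of 79796 in dendritic cells and 152 of 81860 in 3T3. Myc was placed at about 61817000, and every distance below is counted from that rounded position, positive on the downstream side. A summit is the single base at which a peak of ChIP-seq reads was highest, and its score is taken here as the height of the signal there, although the deposited header does not name it.

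The dendritic cells were grown in GM-CSF from mouse bone marrow progenitors and left unstimulated, and they carried a hairpin, brought in by a retrovirus, that targets the histone demethylase JmjD2d. The 3T3 cells, an established fibroblast line, were unstimulated and their labels name no hairpin. Cell type and hairpin therefore cannot be told apart. The series lists candidate enhancers in both cell types with and without LPS or TNF-alpha, in 16 samples, of which the other 14 were not analysed here. Each cell type is 1 library, so no difference was tested. Intervals of counts and shares cover counting error only and treat summits as independent. That of the median pair ratio covers spread among sites, not between libraries. In the labels, 1 field of the 3T3 sample (its cell type) reads dendritic cells, but the title, the file header and the other fields read 3T3, which was used. Neither list was checked against marker genes of its cell type, because no mm9 annotation was used.

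Myc encodes a basic helix-loop-helix transcription factor that drives growth and division, and its expression is controlled by enhancers scattered over a very long, gene-poor stretch downstream. Blood cells use a cluster of enhancers far from the gene, the blood enhancer cluster, known from mouse work to be needed for Myc expression in blood stem and progenitor cells and to be built of modules that differ in activity between blood cell types. H3K4me1 is the histone mark found at active and poised enhancers and beside promoters, and it does not by itself show that an enhancer is active. By gene order in the RefSeq annotation of the later GRCm38 build, Pvt1, a long noncoding RNA gene, follows Myc, and the next protein-coding gene is Gsdmc, a member of the gasdermin family of pore-forming proteins. Between Myc and Gsdmc that annotation holds 16 genes, of which 9 are lncRNA genes, Pvt1 included, 5 are pseudogenes and 2 are small RNA genes. The blood enhancer cluster was placed about 1.7 Mb downstream of Myc, and its modules were not placed on mm9.

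The 2 cell types marked the locus in different patterns. Dendritic cell summits lay in a dense block over the first 500 kb after Myc and in a smaller block from about 1500 kb to 1744 kb, with few between. 3T3 summits ran through the whole interval. Dendritic cells had 108 summits (exact Poisson 95% interval 88.6 to 130.4) and 3T3 had 152 (129 to 178). Dendritic cell summits thus made up 41.5% of the summits in the locus (exact Clopper-Pearson 95% interval 35.5 to 47.8), against 46.4% on all of chromosome 15 and 49.4% in the whole of both lists. Among 1398 genome stretches of the same 1900 kb length, 83.2% held fewer dendritic cell summits than the locus and 96.1% held fewer 3T3 summits. Of the 1135 such stretches with at least 20 summits, 25.02% had a lower dendritic cell share, so the share itself was not unusual. Score medians were close to those of the whole lists, at 35 in the locus against 36 overall in dendritic cells, and at 34 against 33 in 3T3.

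**Figure D1:**
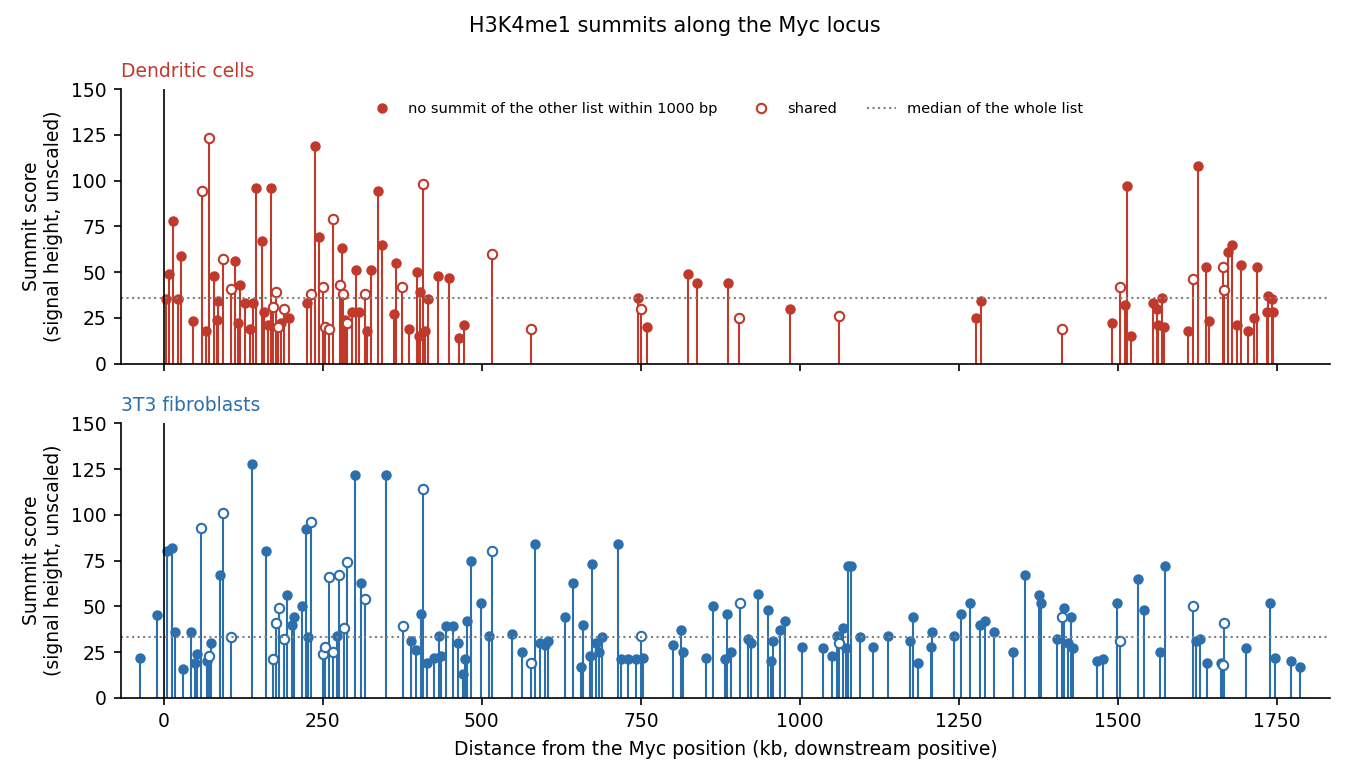
Score of every H3K4me1 summit in the locus (y axis, unscaled signal height) by distance from the Myc position in kb (x axis), with dendritic cells above and 3T3 below. Filled points have no summit of the other list within 1000 bp, open points do, and the dotted lines mark the whole-list medians of 36 and 33. Dendritic cell summits are dense up to about 500 kb and again from about 1500 kb, whereas 3T3 summits are spread over the whole interval.

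In windows of 100 kb counted from Myc, dendritic cells held 13, 18, 14, 12 and 9 summits in the first 5 windows. 3T3 held 13, 8, 14, 7 and 14 there. Both cell types were thus densely marked next to Myc, where a genome window held a mean of 3.02 dendritic cell and 3.10 3T3 summits (median 1 each). These 5 windows held more dendritic cell summits than between 85.7 and 99.9% of the 26380 genome windows, and more 3T3 summits than between 79.7 and 98.3% of them.

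From 500 to 1500 kb the counts parted. Dendritic cells held 2, 0, 3, 3, 2, 1, 0, 2, 0 and 2 summits in these 10 windows, and 3T3 held 8, 10, 6, 8, 9, 10, 5, 7, 5 and 9. Every one of the 10 windows had more 3T3 than dendritic cell summits. The limits of 500 and 1500 kb were set after the counts had been seen, so this unanimity depends on that choice. Against the genome the dendritic cell counts were ordinary and the 3T3 counts high. Of all genome windows, 49.7% held no dendritic cell summit, and windows of 2 and 3 exceeded 58.0 and 63.2% of them, whereas the 3T3 counts of 5 to 10 exceeded between 70.5 and 90.7%. In the last 3 full windows, from 1500 to 1800 kb, the order was the other way, with 9, 11 and 7 in dendritic cells and 5, 7 and 5 in 3T3. These dendritic cell counts exceeded 85.7, 91.7 and 78.8% of genome windows, and the 3T3 counts 70.5, 79.7 and 70.5%. No window held dendritic cell summits alone, and 3 of the 18 windows (16.7%), those that began at 600, 1100 and 1300 kb, held 3T3 summits alone. Over the genome, 11.5% of windows with any summit held dendritic cell summits alone and 21.4% held 3T3 summits alone. The number of 3T3-alone windows in the locus depended on where windows began and how long they were, at 1 with starts 50 kb later, 9 in windows of 50 kb and 0 in windows of 200 kb.

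**Figure D2:**
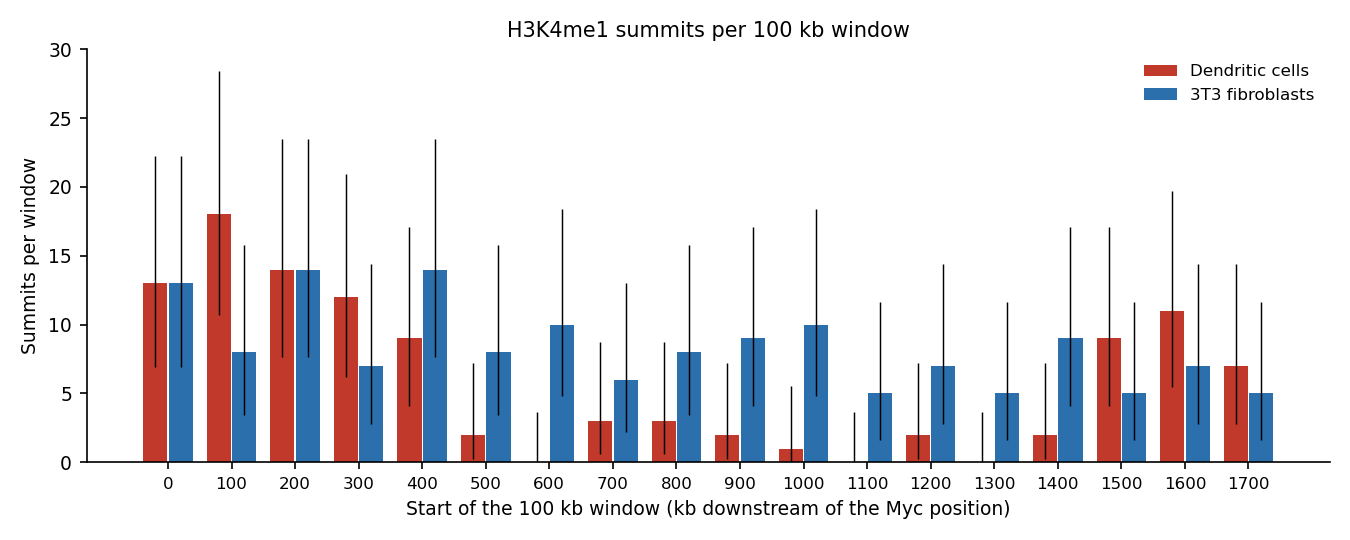
Number of H3K4me1 summits (y axis) in each 100 kb window (x axis, start of the window in kb downstream of Myc), dendritic cells left and 3T3 right in each pair. Error bars are exact Poisson 95% intervals of the count. From 500 to 1500 kb dendritic cell counts are between 0 and 3 and 3T3 counts between 5 and 10.

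The cumulative count shows the same in another form. At 300 kb dendritic cells had reached 45 summits and 3T3 37, of which 2 lay upstream of Myc. Between 300 and 1600 kb dendritic cells added 45 (32.8 to 60.2) and 3T3 103 (84.1 to 124.9). Dendritic cell summits were 30.4% of the summits in that segment (23.1 to 38.5), against 56.25% from 0 to 300 kb (44.7 to 67.3) and 60% from 1600 to 1800 kb (40.6 to 77.3). Of 1496 genome stretches of 1300 kb with at least 20 summits, 13.5% had a lower dendritic cell share than that middle segment, and their median share was 50.1%. Among all 2038 stretches of that length, 60.6% held fewer than its 45 dendritic cell summits (median 31) and 94.3% held fewer than its 103 3T3 summits (median 33). Over the segment as a whole, the low share thus went with many 3T3 summits and not with few dendritic cell summits for a stretch of that length. Its dendritic cell summits were spread unevenly, however. Only 15 of the 45 lay from 500 to 1500 kb, or 1.5 per 100 kb. That is below the genome mean of 3.02 per window but above the genome median of 1.

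**Figure D3:**
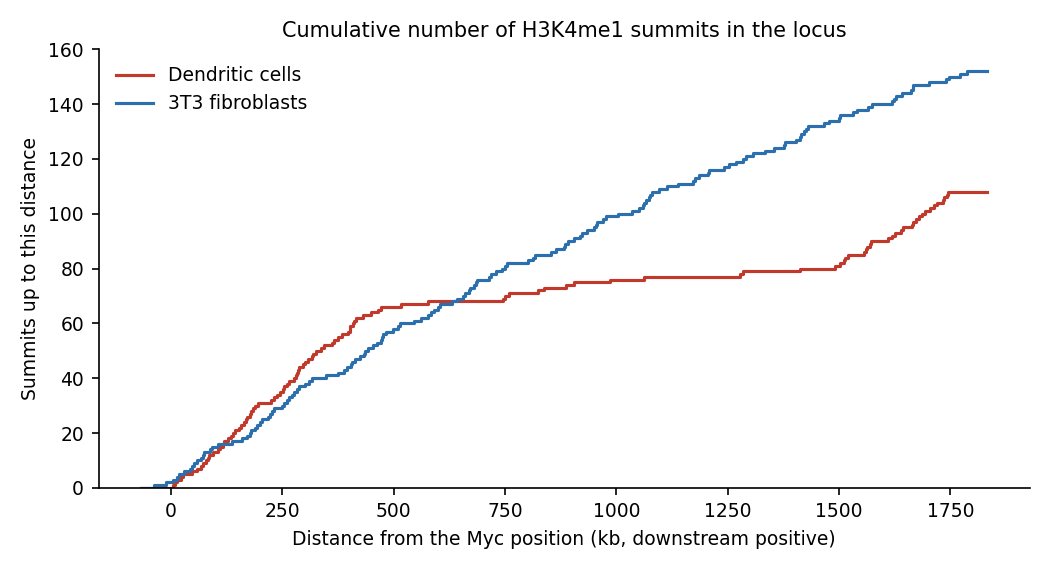
Number of H3K4me1 summits passed (y axis) with distance from the Myc position in kb (x axis), dendritic cells in red and 3T3 in blue. The dendritic cell line is the higher of the 2 over most of the first 600 kb, runs almost flat to about 1500 kb and ends at 108, while the 3T3 line climbs throughout and ends at 152.

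Over the whole locus most summits of either list stood apart from the other. A summit is called shared here when the other list has one within 1000 bp. Of the dendritic cell summits, 79 (73.1%, 63.8 to 81.2) had no 3T3 summit within 1000 bp, against 69.4% of the whole dendritic cell list, a value inside the interval. In 3T3 the number without such a counterpart was 123 (80.9%, 73.8 to 86.8), against 70.2% of the whole 3T3 list, a value below the interval. The 29 shared sites are the same in both lists, so the 3T3 share also reflects the larger 3T3 count. Apart by more than 1000 bp did not always mean far apart. The median distance to the nearest summit of the other list in the first 300 kb was 1999 bp in dendritic cells and 1062 bp in 3T3.

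At Myc itself the nearest summit of each list lay just downstream of the rounded gene position. The dendritic cell summit lay at 61821206, 4.21 kb from Myc, with a score of 35, higher than 47.3% of its list. The 3T3 summit lay at 61822513, 5.51 kb from Myc, with a score of 80, higher than 91.5% of its list. The 2 positions were 1307 bp apart, so neither counted as shared. The next strong mark of each list followed within 15 kb, with a dendritic cell summit of score 78 at 61831896 and a 3T3 summit of score 82 at 61830239. Upstream of Myc, within the 67 kb covered, dendritic cells had no summit and 3T3 had 2, with scores of 45 at 11.3 kb and 22 at 37.3 kb before the gene.

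The first 300 kb after Myc, the side on which Pvt1 lies, was marked in both cell types. Dendritic cells had 45 summits there (32.8 to 60.2) and 3T3 had 35 (24.4 to 48.7). A counterpart in the other list was found for 16 summits of each, which is 35.6% in dendritic cells (21.9 to 51.2) and 45.7% in 3T3 (28.8 to 63.4). The whole-list shares, 30.6 and 29.8%, lie inside these intervals. The score was at or above the median of the own list for 22 of the 45 in dendritic cells and for 24 of the 35 in 3T3. The highest dendritic cell summits of the locus included 1 at 61888790, 71.8 kb from Myc, with a score of 123, and 1 at 62055385, 238.4 kb from Myc, with a score of 119. The first stood 182 bp from a 3T3 summit that scored 23, and the second had no 3T3 summit within 7673 bp.

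The 5 highest 3T3 summits all lay within 408 kb of Myc. The highest, with a score of 128 at 61955031, stood alone among 3T3 summits between 106 and 161 kb, where dendritic cells had 10. Those at 62117663 and 62165597, 300.7 and 348.6 kb from Myc, both scored 122, and the nearest dendritic cell summits lay 1359 and 5568 bp away. The remaining pair, at 62224706 and 61910398, were shared, with scores of 98 and 57 in dendritic cells against 114 and 101 in 3T3. Of the 5 highest dendritic cell summits, by contrast, 3 lay in the first 408 kb and the others at 1514 and 1627 kb.

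Between 300 and 1600 kb many 3T3 summits stood far from any dendritic cell summit. Of the 45 dendritic cell summits, 10 were shared (22.2%, 11.2 to 37.1, an interval that holds the 30.6% of the whole list), and none stood more than 20 kb from a 3T3 summit. Of the 103 3T3 summits, 93 had none within 1000 bp and 10 were shared (9.71%, 4.75 to 17.1), against a shared share of 29.8% in the whole 3T3 list. The 10 shared sites are the same in both lists, so the lower 3T3 share also reflects the larger 3T3 count. The distances below depend on the 2 counts as well. The median distance to the nearest dendritic cell summit was 13114 bp, and 37 of the 103 stood more than 20 kb away. The farthest was 104451 bp from any dendritic cell summit. The 3T3 scores were not at the low end of their list, since 56 of the 103 (54.4%) were at or above its median of 33.

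The part from 500 to 1500 kb, between the dendritic cell blocks, was delimited after its counts had been seen. Dendritic cells had 15 summits there (8.40 to 24.7), or 1.5 per 100 kb, and 3T3 had 77 (60.8 to 96.2), or 7.7 per 100 kb. The genome means were 3.02 and 3.10 per window, and the medians 1 each. The dendritic cell scores ran from 19 to 60, and 5 of the 15 were at or above the list median of 36. The highest, at 62332650, had a 3T3 summit of score 80 only 225 bp away. The 3T3 scores ran from 17 to 84, and 40 of the 77 were at or above their list median. The longest interval without a dendritic cell summit inside the locus ran from 62878301 to 63094051, 216 kb with 16 3T3 summits in it. Another ran from 62394153 to 62561853, 168 kb with 18 3T3 summits in it. The longest interval between neighbouring 3T3 summits inside the locus was 47.6 kb, from 62570470 to 62618026, with 1 dendritic cell summit in it.

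At 1600 to 1800 kb, the distance given for the blood enhancer cluster, dendritic cells had 18 summits (10.7 to 28.4) and 3T3 had 12 (6.20 to 21.0). The intervals of the counts overlap, which does not show that the counts are alike. Scores at or above the own list's median were found for 10 of the 18 in dendritic cells (55.6%, 30.8 to 78.5) and 3 of the 12 in 3T3 (25%, 5.49 to 57.2), and these intervals overlap too. Dendritic cell scores ran from 18 to 108 and 3T3 scores from 17 to 52. Of the summits there, 3 of each list were shared (16.7% in dendritic cells, 3.58 to 41.4, and 25% in 3T3, 5.49 to 57.2), and the whole-list shares of 30.6 and 29.8% lie inside both intervals.

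The dendritic cell summits in this far part formed a stretch from 1610 to 1643 kb and another from 1665 to 1744 kb. The highest dendritic cell summit of this part, at 63443602 and 1627 kb from Myc, scored 108, more than 96.9% of its list. Its nearest 3T3 summit lay 2140 bp away and scored 32. From 63489431 to 63510956 there were 4 dendritic cell summits in a row with scores of 61, 65, 21 and 54 and no 3T3 summit among them. Farther out, the dendritic cell summit at 63535935 scored 53 and had no 3T3 summit within 17003 bp. The 3T3 list was not empty here, and a dendritic cell summit of score 35 lay 2231 bp from the highest 3T3 summit of this part, which scored 52 at 63556431. Nearer to Myc, between 1500 and 1600 kb, dendritic cells had another 9 summits against 5 in 3T3, among them a dendritic cell summit of score 97 at 63330582 that had no 3T3 summit within 10821 bp. Past 63560652 dendritic cells had no further summit in the locus, and 3T3 had 3, with scores of 22, 20 and 17.

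**Figure D4:**
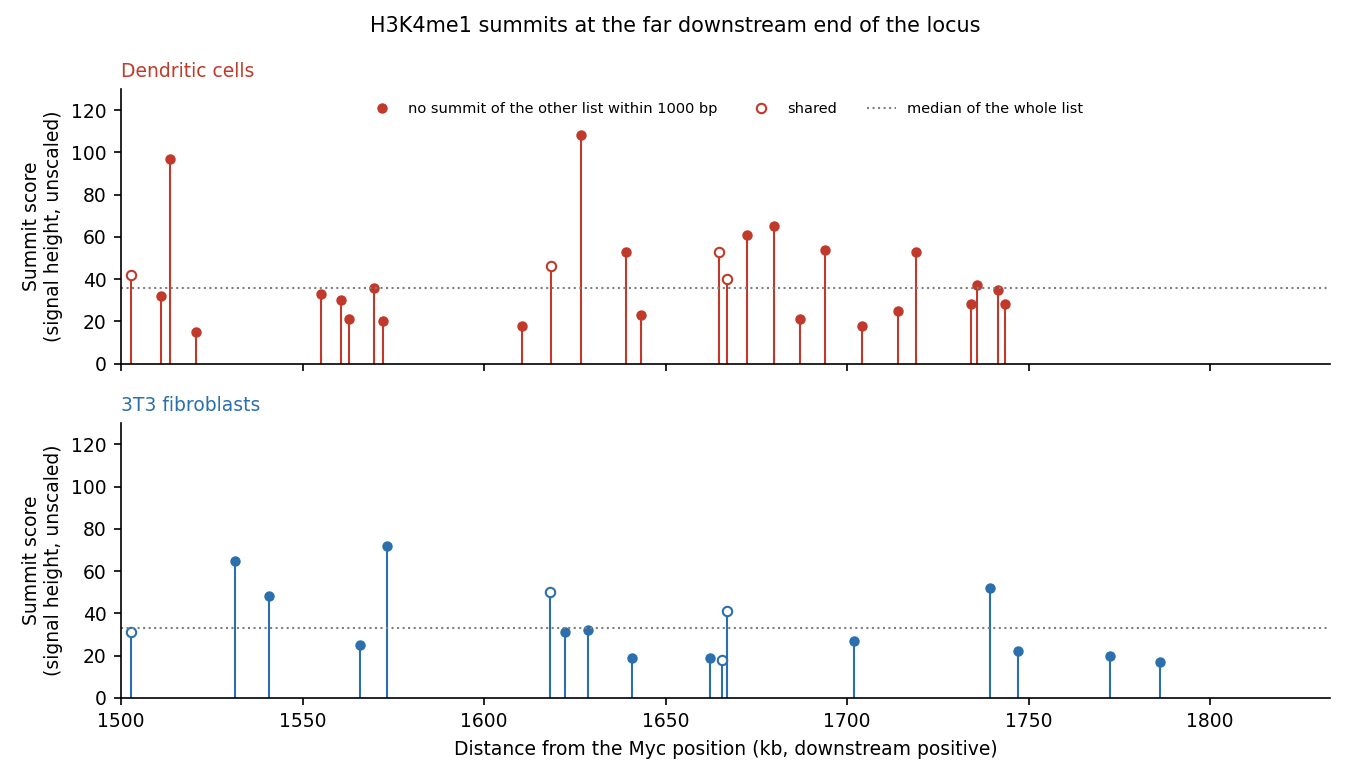
Score of each H3K4me1 summit (y axis, unscaled signal height) from 1500 kb downstream of the Myc position to the end of the locus (x axis, kb), dendritic cells above and 3T3 below, with symbols and dotted median lines as in the plot of the whole locus. Between 1600 and 1800 kb, 10 of 18 points for dendritic cells and 3 of 12 for 3T3 reach the median line of their own list.

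The 29 sites marked in both cell types were compared by the ratio of the dendritic cell score to the 3T3 score, on the log2 scale and relative to the median of all 24378 such pairs, because no scaling between the lists is recorded. On this centred scale the dendritic cell side was favoured at 7 of the 29 pairs and the 3T3 side at 22. The same split was 550 to 622 on chromosome 15 and, through the centring, 12185 to 12187 over all pairs. Most of the differences were small, with 20 of the 29 (69.0%) below 2-fold, against 76.5% of all pairs. The median log2 ratio was -0.24, against -0.06 for the 1173 pairs of chromosome 15. Its 95% interval from ranks was -0.63 to -0.11, and -0.58 to 0.21 when only pairs within 250 bp were kept. This interval covers spread among the sites of 1 library per cell type, so it is no test of a difference between the cell types. At least 2-fold higher in dendritic cells were 3 pairs (10.3%), against 11.6% of all pairs, and at least 2-fold higher in 3T3 were 6 (20.7%), against 11.9% of all pairs. With 29 pairs these shares rest on few sites.

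The strongest dendritic cell excess was at 61888790, where the dendritic cell score was 123 and the 3T3 score 23, a log2 ratio of 2.30. The next were at 62083129, with scores of 79 in dendritic cells and 25 in 3T3 (log2 ratio 1.54), and at 63481769 in the far part, with 53 and 18 in the same order (1.44). On the other side, the site at 62077148 had a dendritic cell score of 19 and a 3T3 score of 66 (log2 ratio -1.92). That at 62105613 had 22 in dendritic cells and 74 in 3T3 (-1.87), and that at 62048409 had 38 in dendritic cells and 96 in 3T3 (-1.46). Of these 6, the pairs at 62077148 and 62083129, which favoured opposite cell types, lay close together, at 260.1 and 266.1 kb from Myc. In the middle segment 9 of the 10 pairs favoured 3T3 on the centred scale, with log2 ratios from -1.33 to 0.32, and 8 of the 10 differed by less than 2-fold. Among the 9, the pair at 62191996 scored 42 in dendritic cells and 39 in 3T3, and that at 62394153 scored 19 in both, so these fell on the 3T3 side only through the centring.

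**Figure D5:**
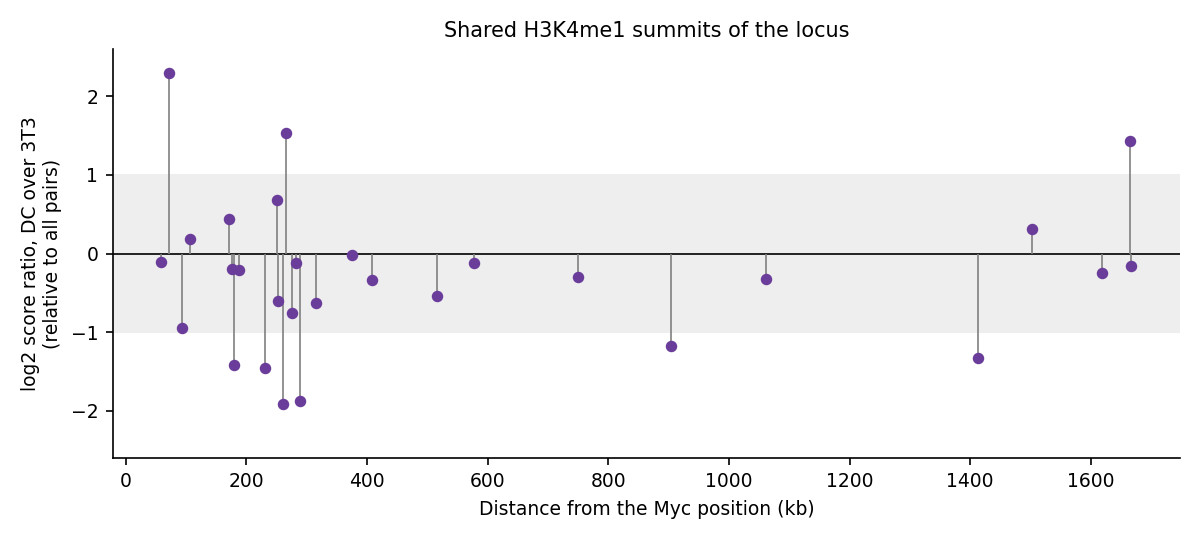
Log2 ratio of the dendritic cell score to the 3T3 score at the 29 shared sites of the locus (y axis, relative to the median of all pairs) by distance from the Myc position in kb (x axis). The grey band marks differences of less than 2-fold. Of the points, 7 lie above 0 and 22 below, and the 9 points outside the band comprise 3 above and 6 below.

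The clustering of each list was described by joining neighbouring summits of the list that lay at most 20 kb apart, a distance chosen after the data had been seen. Dendritic cell summits fell into 15 such stretches and 3T3 summits into 29. The largest dendritic cell stretches both lay in the first 500 kb. The one from 4.21 to 196.3 kb after Myc held 31 summits, and the one from 224.7 to 472 kb held 35. Of the 16850 stretches of the whole dendritic cell list (median 2 summits), 152 and 99 held more. At a joining distance of 30 kb those from 4.21 to 472 kb made a single stretch of 66, and at 10 kb the one next to Myc held only 5. The largest 3T3 stretch ran from 160.7 to 315.9 kb and held 23 summits, and 278 of 20656 3T3 stretches held more. Other 3T3 stretches held 15 summits from -11.3 to 106.2 kb and 19 from 376 to 515.4 kb. Between 500 and 1500 kb no dendritic cell stretch that lay wholly inside had more than 3 summits, whereas 3T3 had stretches of up to 14, from 853 to 977 kb.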

How the data were processed

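H3K4me1 ChIP-seq of unstimulated dendritic cells and unstimulated 3T3 was analysed, 1 library each, grouped by sample title. The submitters' processing notes name Bowtie, MACS 1.4 and the mm9 build. Per the file headers, peaks were called at a p-value threshold of 1e-04 and a shift of 150 bp, without a fragment model or local background. Whether input was used is not stated in those sources. The authors deposited each summit with a score, treated here as signal height. Scores of both lists are printed unscaled, and only the pair ratios and folds are set relative to the median pair. Depth is unknown, and where no summit is listed, the mark may still be present below the threshold.

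Positions are 1-based. A summit was shared when the other list had one within 1000 bp, and pairs were mutually nearest. Intervals are exact Poisson (counts), exact Clopper-Pearson (shares) or from ranks (medians), at 95%. Genome windows started at round coordinates, with empty ones kept and chromosome Y and mitochondrial DNA left out. The segments were 0 to 300, 300 to 1600 and 1600 to 1800 kb from Myc. Named summits were the nearest to Myc, the 5 highest of each list in the locus and the 10 highest at 1600 to 1800 kb, and named pairs the 3 most extreme on each side. Others were named after their values were seen. The locus, segments and rules were chosen with earlier results of these data known. Marker genes were to be checked only on an mm9 annotation. Functions were tested on simulated data. Tools were pandas 2.3.3, scipy 1.17.1, numpy 2.4.6 and matplotlib 3.10.9 under Python 3.11.15.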

Additional observations from a re-analysis of the deposited data

How the results depend on the processing

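No paired analysis was possible because each cell type is 1 library, and none could be left out. Keeping only summits at or above the own list's median left 52 dendritic cell and 84 3T3 summits in the locus, and the 39898 top-scoring summits of each list left 52 and 80. At 1600 to 1800 kb both settings left 10 dendritic cell and 3 3T3 summits. The dendritic cell share of the locus stayed between 38.2 and 41.5%, and that at 300 to 1600 kb between 26.3 and 30.4%, but it was 16.3% at 500 to 1500 kb. Shared shares moved with the distance allowed, to 13.9% of dendritic cell and 9.87% of 3T3 summits at 250 bp, and 40.7 and 29.6% at 2000 bp. Windows with 3T3 summits alone numbered 1 with starts 50 kb later, 9 at 50 kb and 0 at 200 kb. The stretch next to Myc held 5 dendritic cell and 3 3T3 summits at joining distances of 10 kb, and 66 dendritic cell and 16 3T3 summits at 30 kb. The median pair ratio lay between -0.30 and -0.17 under every pairing distance and centring tried. At 250 bp its interval over sites (-0.58 to 0.21) included 0, which is no test between the cell types. Of 45 alternatives, 26 stayed within 1.5 times the count or within the interval and 19 did not. This tally says little about stability. Cutting each list by score was bound to lower the counts, and merging summits within 1000 bp left every count and share unchanged. The settings of the 300 to 1600 kb share and of the stretches were added after seeing the data.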

Other observations

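The dendritic cell block after Myc began abruptly when positions outside the locus were included. The last dendritic cell summit before Myc lay at 61372702, 444 kb upstream, and the next at 61821206, 4.21 kb downstream. The 3T3 list had 22 summits in this interval of 448.5 kb. Of the 79774 intervals between neighbouring dendritic cell summits, 865 were at least as long. At the far end, dendritic cells had no summit from 63560652 to 63741393, an interval of 181 kb with 3 3T3 summits in it, and 3T3 had none from 63603144 to 63784534, also 181 kb.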
